A study of Mus musculus with 12 samples.

Results

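The genes described here are Slc2a1, which encodes the glucose transporter GLUT1, and 9 enzymes of glycolysis or of its control, Hk2, Pfkl, Pfkfb3, Aldoa, Tpi1, Pgk1, Pgam1, Eno1 and Ldha. They were chosen partly because GW8510 lowered them in the αTC1 alpha cell line and raised them in the βTC3 beta cell line. Their responses are therefore given as a description, and counts of them past a threshold are not read as a test. Of the 10 genes, 9 were read by 20 of the 22690 probe sets on the arrays, and these 9 stand among 12255 genes measured in all. Eno1, which encodes an enolase, was not analysed here, since no probe set used here carries its symbol.

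In glycolysis, glucose enters through a transporter of the Slc2a family, is phosphorylated by a hexokinase, is phosphorylated again by phosphofructokinase, is split by aldolase, and is converted stepwise to pyruvate. Pyruvate is then either reduced to lactate by lactate dehydrogenase or oxidised in the mitochondrion. Beta cells normally take up glucose through Slc2a2 in rodents and hold lactate dehydrogenase and the monocarboxylate transporters low, so that most of the carbon reaches the mitochondrion. Many enzymes of the pathway are encoded by targets of the hypoxia-inducible factors and of MYC, which bind E-box-like DNA.

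RNA was profiled from αTC1 (aTC1 in the labels) and βTC3 (bTC3), mouse lines from islet tumours that make glucagon and insulin, both raised by the SV40 large T antigen in transgenic mice. The 4 groups were alpha cells given 3.3 µM GW8510, alpha cells given DMSO, beta cells given 3.3 µM GW8510 and beta cells given DMSO, with 3 biological replicates each. GW8510 is a putative inhibitor of CDK2, every group was kept in 0.1% DMSO, and RNA was taken on day 5 after a change of medium and compound on day 3. Each line is a single tumour line, the labels give only the low-glucose medium of the alpha cells, and so line and medium cannot be told apart. One label of GW8510 replicates 2 and 3 spells the compound's code with another last digit, while their compound label reads GW8510.

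Values are array intensities on a linear scale with bounds at 20 and 20000, and each gene is read by its brightest probe set, by mean over all 12 arrays. Median intensities per array were 174 to 182, except for beta GW8510 replicate 3, which stood apart at 199.9. In the alpha line, Gcg was at the upper bound on all arrays, while Ins2 averaged 153 ± 29.4 with GW8510 and 96.8 ± 1.82 with DMSO (SD, n = 3 each). In the beta line, Ins2 and Iapp were at the upper bound on all arrays, and Gcg averaged 12041 ± 798 with GW8510 and 6420.2 ± 367 with DMSO, so this line carried glucagon RNA beside insulin RNA. The summed intensity of 6 alpha cell markers was 31978 to 33597 in beta cells with GW8510 and 26843 to 27558 in those with DMSO, and that of 6 beta cell markers was 57022 to 59068 and 53647 to 54977. In the alpha line, the sums were 43469 to 43799 with GW8510 and 32447 to 33566 with DMSO for the alpha cell markers, against 2950.3 to 3249 and 2338 to 2469 for the beta cell markers. These sums were set by few genes, several of them at the upper bound. Of the alpha cell markers, Ttr and Pou3f4 were higher and Irx1, Irx2 and Gria2 lower in alpha cells (list median -0.23), with Ttr at 19884 ± 188 with GW8510 and 8351 ± 511 with DMSO, while in beta cells Gcg was higher and Gria2 lower (0.05). Of the beta cell markers, Pdx1, Iapp and Ins2 were higher and none lower in alpha cells (0.40), while in beta cells Slc2a2 was higher (log2 5.12), Nkx6-1 (-0.27) and Pdx1 (-0.20) were lower, calls that were lost when some single arrays were left out, and Ins2 and Iapp could not move past the bound. Of 7 exocrine markers only Cela1 passed, higher in alpha (0.55) and in beta cells (1.03). Of 3 delta and PP cell markers Hhex was higher in alpha cells (1.02) and none passed in beta cells, where Sst was at the upper bound on all GW8510 arrays and averaged 17819 ± 646 with DMSO. The part of these shifts in the results below was not tested. Ptprc, which marks immune cells, was at the lower bound on 11 of the 12 arrays, and Col1a2 was the single member of 10 measured fibroblast, endothelial and immune markers that passed the test in beta cells (292 ± 31.3 with GW8510, 157 ± 15.6 with DMSO), with none passing in alpha cells.

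After GW8510, all 9 measured genes had a lower mean in alpha cells and a higher mean in beta cells, a combination of signs that 20.9% of all genes had. The log2 fold changes of GW8510 over DMSO ran between -1.86 (Hk2) and -0.25 (Pfkfb3) in alpha cells, with a median of -0.45 beside 0.03 for all genes. In beta cells they ran between 0.12 (Hk2) and 1.80 (Ldha), with a median of 0.66 beside 0.07 for all genes. At an adjusted p under 0.05 in limma, 8 of the 9 were lower in alpha cells and 0 higher, where 21.2% of all genes were lower, with Pfkfb3 not passing. In beta cells 8 were higher and 0 lower, where 19.7% of all genes were higher, with Hk2 not passing. Lower in alpha cells and higher in beta cells, both past the threshold, were 7 of the 9 genes and 2.47% of all genes. Since the genes were picked on these contrasts, nothing is read from these shares or from the counts without overlap that follow. GW8510 and DMSO arrays did not overlap for all 9 in alpha cells, where 25.5% of all genes were lower without overlap, and for 8 of the 9 in beta cells, where 28.4% were higher without overlap. In RNA from whole cultures, fewer cells of a kind and less RNA per cell cannot be told apart.

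**Figure D1:**
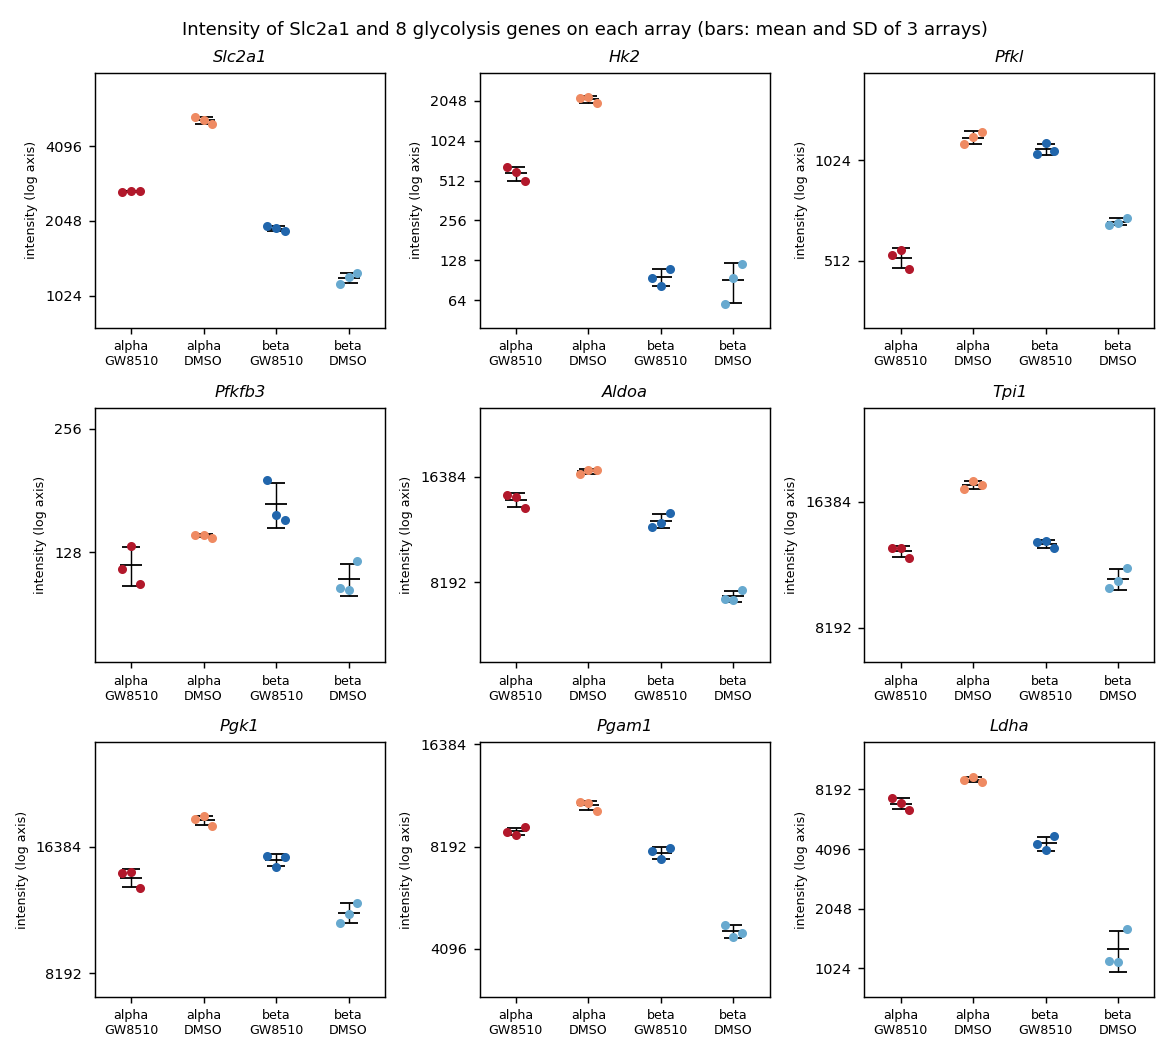
Intensity (log axis) of Slc2a1 and 8 glycolysis genes on each of the 12 arrays, with GW8510 left of DMSO in each line; dots are arrays, and bars give the mean and the SD of 3 arrays. All 3 GW8510 arrays of alpha cells lie below the DMSO arrays in each panel, and those of beta cells lie above theirs in 8 panels, with Hk2 overlapping.

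The start regions of the 9 genes were searched for ACGTG, the core of the sequence bound by hypoxia-inducible factors, in the 250 bases before each annotated start, on both strands. Such a window held the motif in 7 of the 9 genes (Slc2a1, Hk2, Pfkfb3, Aldoa, Pgk1, Pgam1 and Ldha), and in 23.2% of the 9783 measured genes with a window and 18.5% of all 27025 genes. The E-box CACGTG, which holds ACGTG on both strands, was found in 2 of the 9 (Pfkfb3 and Ldha) against 9.25% of measured genes, and GCGTG in 5 of the 9 against 45.0%. Among 12 other glycolysis genes with a window, 3 held ACGTG (Pfkm, Pkm and Adpgk) and 7 held GCGTG. At least 1 of ACGTG and GCGTG was found in 8 of the 9 members, 8 of these 12 genes and 56.0% of measured genes. Genes with several starts had several chances of a match, with 3 windows for Aldoa, 2 each for Pfkfb3 and Ldha and 1 for each other gene. A match describes letters in a window and not a bound site. The stretches below show the match in 6 genes, so that the spacing and the number of copies can be compared. They are from RefSeq on GRCm38.p6, 5′ to 3′ on the strand of the gene, with ACGTG or its reverse complement CACGT in capitals.
Slc2a1, chr4:119108689-119108733, plus strand: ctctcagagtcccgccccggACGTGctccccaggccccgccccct
Hk2, chr6:82774482-82774526, minus strand: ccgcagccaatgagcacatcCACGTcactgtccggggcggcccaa
Pfkfb3, chr2:11553965-11554009, minus strand: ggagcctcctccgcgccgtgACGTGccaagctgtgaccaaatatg
Pgk1, chrX:106186930-106186993, plus strand: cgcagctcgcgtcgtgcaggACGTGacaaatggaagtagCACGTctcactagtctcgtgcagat
Pgam1, chr19:41911737-41911781, plus strand: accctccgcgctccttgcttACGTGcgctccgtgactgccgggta
Ldha, chr7:46845639-46845794, plus strand: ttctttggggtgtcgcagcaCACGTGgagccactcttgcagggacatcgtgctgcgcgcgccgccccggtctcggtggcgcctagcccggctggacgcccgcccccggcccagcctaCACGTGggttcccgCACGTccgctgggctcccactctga
Counting bases before the annotated start, the match lay 36 bases before it in Slc2a1, 52 in Hk2 (with another copy at 226), 60 in Pfkfb3 (with a CACGTG copy, matched at 53 and 52, before its other start) and 114 in Pgam1. The Pgk1 stretch held 2 copies facing opposite ways, and the Ldha stretch held 5 matches, of which 4 came from 2 palindromic CACGTG copies. Pfkl and Tpi1 had no ACGTG in their windows.

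Slc2a1 encodes the glucose transporter that most proliferating cells use, and its RNA was read here, while glucose uptake was not measured. Slc2a1 had 2681, 2704 and 2692 in alpha cells with GW8510, against 5385, 5232 and 5029.5 with DMSO. In beta cells it had 1945, 1914 and 1863 with GW8510, against 1139.9, 1218 and 1257 with DMSO. No arrays of the 4 groups overlapped, and the order ran from alpha DMSO, the highest, through alpha GW8510 and beta GW8510 to beta DMSO. GW8510 thus left 0.516 of the DMSO level in alpha cells (log2 -0.95 ± 0.05, SE) and 1.58 times the DMSO level in beta cells (log2 0.66 ± 0.05). The other 2 probe sets of Slc2a1 gave log2 -1.21 and -1.15 in alpha cells and 0.64 and 0.74 in beta cells. All 3 probe sets therefore gave the same direction in both lines.

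The other glucose transporters did not share this pattern as a group. Of 7 measured, 3 were lower in alpha cells (Slc2a3, log2 -1.62; Slc2a5, -0.91; Slc2a8, -0.39) and Slc2a4 was higher (0.40), with adjusted p of 0.00786 or less in limma, and the median was -0.10. The Slc2a4 call was lost with the mean of its probe sets (0.17). In beta cells 2 were higher, Slc2a2 (5.12) and Slc2a5 (0.20, adjusted p = 0.013), and 0 were lower, with a median of 0.20. Among all genes, 21.2% were lower and 20.2% higher in alpha cells, and 19.7% higher and 14.3% lower in beta cells. Slc2a3, the high-affinity transporter GLUT3, had 1125, 1044 and 939 in alpha cells with GW8510, against 3093, 3399 and 3057 with DMSO, which was the same direction as Slc2a1. Its 4 probe sets ran from log2 -1.62 to -0.27 in alpha cells. In beta cells it had 89.0, 62.1 and 78.3 with GW8510 and 57.6, 71.9 and 69.2 with DMSO, low values that overlapped. Slc2a2, the transporter of normal rodent beta cells, had 2993, 2876 and 3242 in beta cells with GW8510 and 91.6, 88.7 and 82.3 with DMSO, while in alpha cells it stayed between 20.9 and 24.6, near the lower bound.

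Hk2, the hexokinase that is induced in many tumours, had the largest fall of the 9 genes in alpha cells. It had 643, 597 and 506 with GW8510, against 2151, 2203 and 1969 with DMSO, which is 0.275 of the DMSO level (log2 -1.86 ± 0.21, SE). In beta cells Hk2 had 93.6, 82.7 and 110.4 with GW8510 and 59.7, 93.6 and 120.0 with DMSO. These beta values were low and overlapped, and the log2 fold change of 0.12 ± 0.21 turned to -0.16 without beta DMSO replicate 1 and became 0.34 without replicate 3, so no direction is given for Hk2 in beta cells. Among the 9 genes Hk2 also had the widest gap between the lines, with alpha over beta at 6.1-fold under GW8510 and 24.1-fold under DMSO. Hk1, the hexokinase that most tissues express, had 1535, 1501 and 1693 in beta cells with GW8510 against 922, 903 and 1028 with DMSO (log2 0.73, adjusted p = 8.27e-06 in limma). In alpha cells its change was log2 0.19 (adjusted p = 0.037), opposite in sign to that of Hk2, and this call was lost under 7 of the alternatives.

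Pfkl encodes the liver-type phosphofructokinase, which catalyses the committed step. Pfkl had 533, 552 and 484 in alpha cells with GW8510, against 1144, 1207 and 1248 with DMSO. Among beta cells it had 1069.5, 1157 and 1093 with GW8510, against 657, 666 and 687 with DMSO. Unlike every other member, its lowest group was alpha GW8510, and the beta GW8510 arrays overlapped those of alpha DMSO. The level was 0.435 of DMSO in alpha cells (log2 -1.20 ± 0.06) and 1.65 times DMSO in beta cells (log2 0.72 ± 0.06), and the other probe set gave log2 -0.91 and 0.65. The line order of Pfkl was thereby turned round, with alpha over beta at 0.472-fold under GW8510 and 1.79-fold under DMSO. The isozymes of this step did not move as one. Pfkp, the platelet type, fell in alpha cells (log2 -0.57, adjusted p = 2.12e-05 in limma) and rose in beta cells (1.23, adjusted p = 1.51e-07), while Pfkm, the muscle type, fell in both (-0.34 and -0.43, adjusted p = 0.000969 and 0.000288).

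Pfkfb3 makes fructose 2,6-bisphosphate, the activator of phosphofructokinase, and its 2 probe sets disagreed. On the probe set used, it had 117, 132 and 107 in alpha cells with GW8510, against 141, 141 and 139 with DMSO (log2 -0.25 ± 0.10). In beta cells the values were 192, 158 and 154 with GW8510, against 105, 104 and 121 with DMSO (log2 0.61 ± 0.10). These groups did not overlap in either line, although the alpha gap was narrow. The second probe set gave log2 0.19 ± 0.11 in alpha cells and 0.00 ± 0.11 in beta cells, with overlapping arrays in both, and was the single probe set of the 20 without a log2 value below 0 in alpha cells and above 0 in beta cells, by sign alone. With the mean of both probe sets, Pfkfb3 came to -0.03 in alpha cells and 0.30 in beta cells.

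Genes that oppose or steer glycolysis moved both ways in each line. Of 11 measured genes that control the flux, 5 were higher in alpha cells (Fbp1, log2 2.24; Txnip, 1.27; Arrdc4, 0.82; Fbp2, 0.81; Pfkfb2, 0.34) and 3 were lower (Pck2, -1.29; Mlxipl, -1.14; G6pc3, -0.40), beside 20.2% of all genes higher and 21.2% lower. In beta cells 3 were higher (Fbp1, 2.92; Fbp2, 0.95; Pfkfb2, 0.60) and 2 lower (Mlxipl, -0.37; Pck2, -0.21), beside 19.7% of all genes higher and 14.3% lower. The lower calls in beta cells were lost under 4 of the alternatives for Mlxipl and 10 for Pck2. These counts are small, and nothing is read from them about the list as a whole. Fbp1, the gluconeogenic enzyme that reverses the phosphofructokinase step, thus rose in both lines, with 8878, 8565 and 8829.6 in alpha cells with GW8510 against 1883, 1827 and 1835 with DMSO. Its beta values were 1071, 1090.3 and 1139.8 with GW8510 and 152, 137 and 149 with DMSO. Txnip and Arrdc4, arrestin-like genes that respond to glucose, rose in alpha cells. In beta cells they gave -0.04 and -0.05 (adjusted p = 0.74 and 0.75 in limma).

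Aldoa, the aldolase that splits the phosphorylated hexose, was among the brightest genes and changed modestly in alpha cells. It had 14498, 14389 and 13352 with GW8510, against 16675, 17177 and 17149 with DMSO (log2 -0.27 ± 0.06). Beta cells had 11778, 12129 and 12927 with GW8510, against 7332, 7275 and 7792 with DMSO (log2 0.72 ± 0.06). The groups were apart in both lines, and its 4 probe sets ran between -0.34 and -0.27 in alpha cells and between 0.62 and 0.80 in beta cells. All 4 are of a class whose probes can match other transcripts, so reads of related sequences cannot be set apart from Aldoa. This class held 7 of the 20 probe sets of the members, the rest of them from Pgk1 and Tpi1. Aldoc, the aldolase typical of brain, moved further in alpha cells, with 105, 86.2 and 83.0 under GW8510 against 389, 410.3 and 390.0 under DMSO (log2 -2.13, adjusted p = 2.04e-09 in limma). In beta cells Aldoc rose by 0.92 (adjusted p = 5.40e-06), while its other, dimmer probe set gave 0.05 and 0.00.

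Tpi1 interconverts the triose phosphates that aldolase releases. Tpi1 had 12730.3, 12693 and 12049.7 in alpha cells with GW8510, against 17604, 18348 and 17987 with DMSO (log2 -0.53 ± 0.05). In beta cells it had 13123, 13244 and 12710.2 with GW8510, against 10177, 10619.7 and 11381 with DMSO (log2 0.28 ± 0.05). GW8510 and DMSO arrays did not overlap in either line, but those of alpha GW8510 and beta GW8510 did, and a difference between the lines was not resolved there. Its 3 probe sets gave -0.53 to -0.48 in alpha cells and 0.28 to 0.35 in beta cells.

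Pgk1 and Pgam1 act on the phosphoglycerates. Pgk1, phosphoglycerate kinase, which regains ATP, had 14213, 14234 and 13043 in alpha cells with GW8510, against 19063, 19335 and 18350.1 with DMSO (log2 -0.45 ± 0.06). Its beta values were 15587, 14674 and 15512 with GW8510, against 10805, 11333 and 12025 with DMSO (log2 0.42 ± 0.06). The alpha DMSO arrays lay close to the upper bound of 20000, where a difference can be compressed, and the same held for Tpi1. The 2 other probe sets of Pgk1, which read lower intensities, gave -0.30 and -0.39 in alpha cells and 0.29 and 0.20 in beta cells. These were the same directions with a smaller change, but both probe sets are of the class that can match other transcripts. Pgam1, phosphoglycerate mutase, had 9039.7, 8873 and 9334 in alpha cells with GW8510, against 11069, 11009.5 and 10435 with DMSO (log2 -0.25 ± 0.05). In beta cells Pgam1 had 7947, 7516 and 8131 with GW8510, against 4832, 4448 and 4559.6 with DMSO (log2 0.77 ± 0.05). Both genes were apart between GW8510 and DMSO in both lines, and for Pgam1 the change was larger in beta than in alpha cells. The muscle form Pgam2 and the red cell enzyme Bpgm did not pass in either line (log2 0.02 and -0.02 in alpha cells, 0.04 and 0.10 in beta cells).

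**Figure D2:**
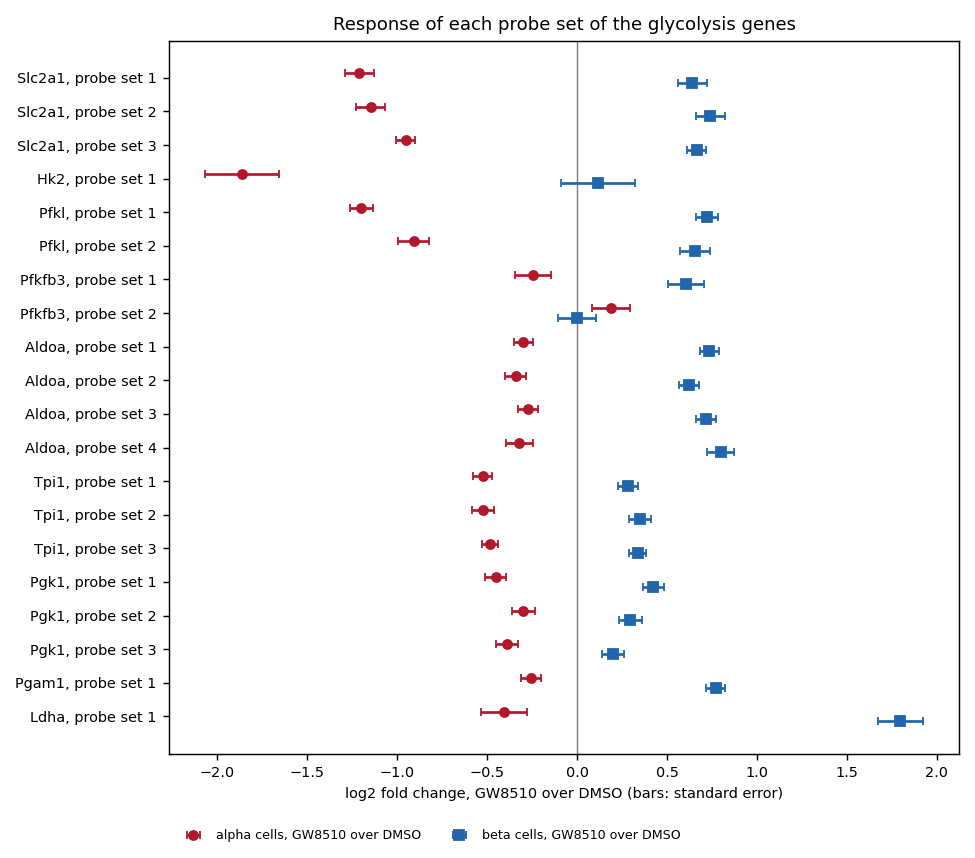
Log2 fold change of GW8510 over DMSO for each of the 20 probe sets of the 9 genes (bars, standard error; circles, alpha cells; squares, beta cells). In 19 of the 20, the alpha value is below 0 and the beta value above it; the exception is the second probe set of Pfkfb3.

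The enolases and the pyruvate kinase follow in the pathway. Eno2, the enolase of neurons and endocrine cells, was lower with GW8510 in both lines (log2 -0.96 and -0.94, adjusted p = 6.46e-07 and 2.50e-06 in limma), with a difference between the lines of -0.03 (adjusted p = 0.9). Eno3, the muscle form, fell in alpha cells (-0.88, adjusted p = 9.02e-05) and rose in beta cells (0.73, adjusted p = 0.000637) at dim values between 76.9 and 181. Pkm, the pyruvate kinase of most tissues, had 3770.4, 3810.0 and 3467 in alpha cells with GW8510 against 5698, 5951 and 6051 with DMSO. In beta cells it had 5455, 5674 and 6157 with GW8510 against 3460.3, 3630.2 and 3685 with DMSO. Its changes of -0.68 and 0.68 (adjusted p = 2.55e-06 and 6.77e-06) ran as those of Pgk1 and Pgam1 did.

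Ldha encodes the lactate dehydrogenase subunit that favours lactate, and had the largest rise of the 9 genes in beta cells. It had 4332, 4051 and 4763 in beta cells with GW8510, against 1113, 1105 and 1619 with DMSO, which is 3.48 times the DMSO level (log2 1.80 ± 0.13, SE). In alpha cells Ldha had 7381, 6977 and 6482 with GW8510, against 9170.2, 9451 and 8930.2 with DMSO, or 0.756 of the DMSO level (log2 -0.40 ± 0.13). The groups were apart in both lines, with beta DMSO replicate 3 above its 2 fellows. Without that array the beta change was 1.98, and the alpha change was between -0.45 and -0.36 over all alternatives, with the alpha call lost under 4 of them. The alpha over beta level was 1.59-fold under GW8510 and 7.3-fold under DMSO. Ldhb, which encodes the subunit that favours pyruvate, went up in both lines, with 1588, 1718 and 1644 in alpha cells with GW8510 against 403, 408 and 454 with DMSO (log2 1.97, adjusted p = 8.38e-10 in limma). In beta cells its rise was 0.56 (adjusted p = 4.32e-05), and the response was larger in alpha cells by 1.40 (adjusted p = 5.80e-07), opposite to the sign of the Ldha difference, -2.20. Its other 3 probe sets gave 2.56 to 3.50 in alpha cells and 0.73 to 1.07 in beta cells.

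**Figure D3:**
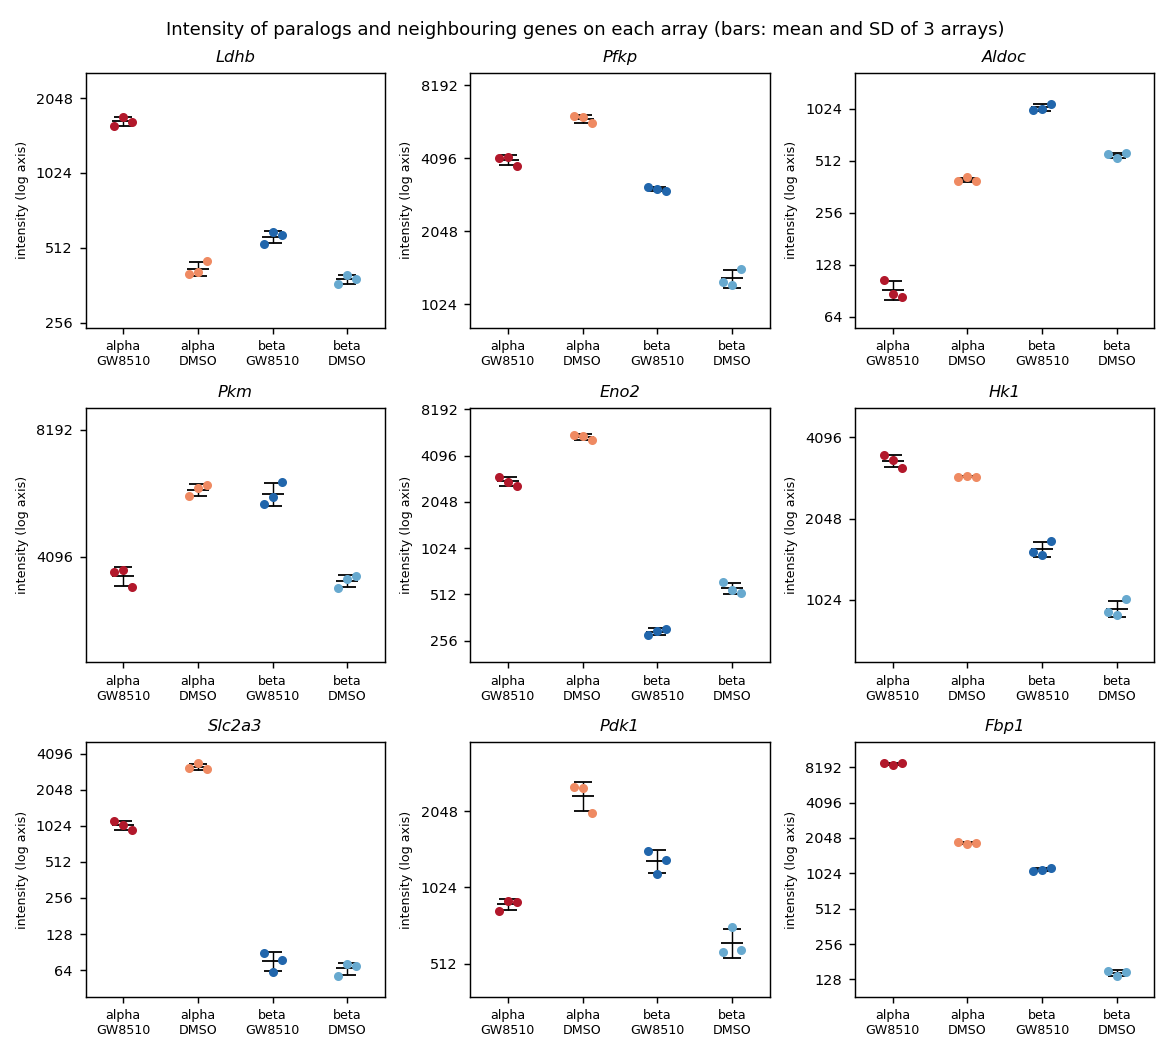
Intensity (log axis) on each of the 12 arrays of 9 genes beside the members, namely the isozymes Ldhb, Pfkp, Aldoc, Pkm, Eno2 and Hk1, the transporter Slc2a3, the kinase Pdk1 and the phosphatase Fbp1; bars give the mean and the SD of 3 arrays. Ldhb and Fbp1 are higher with GW8510 in both lines, Eno2 is lower in both, and Pfkp, Aldoc, Pkm and Pdk1 are lower in alpha and higher in beta cells.

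Over the 13 measured genes that encode other forms of these enzymes or neighbouring steps, 7 were lower and 2 higher in alpha cells (median -0.32), and 6 were higher and 2 lower in beta cells (median 0.21). Lower in alpha and higher in beta cells were 4 of them (Pfkp, Aldoc, Eno3 and Pkm), higher in both were Hk1 and Ldhb, and lower in both were Eno2 and Pfkm. Of all genes, 2.47% were lower in alpha and higher in beta cells, 9.07% higher in both lines and 9.04% lower in both. Taken line by line, 21.2% of all genes were lower and 20.2% higher in alpha cells, and 19.7% higher and 14.3% lower in beta cells. Adpgk, which phosphorylates glucose with ADP, was lower in alpha cells (-0.32, adjusted p = 0.031 in limma) and gave -0.16 in beta cells (adjusted p = 0.3); the alpha call was lost under 9 of the alternatives. Bpgm, Pgam2, Pklr and Galm passed in neither line.

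**Figure D4:**
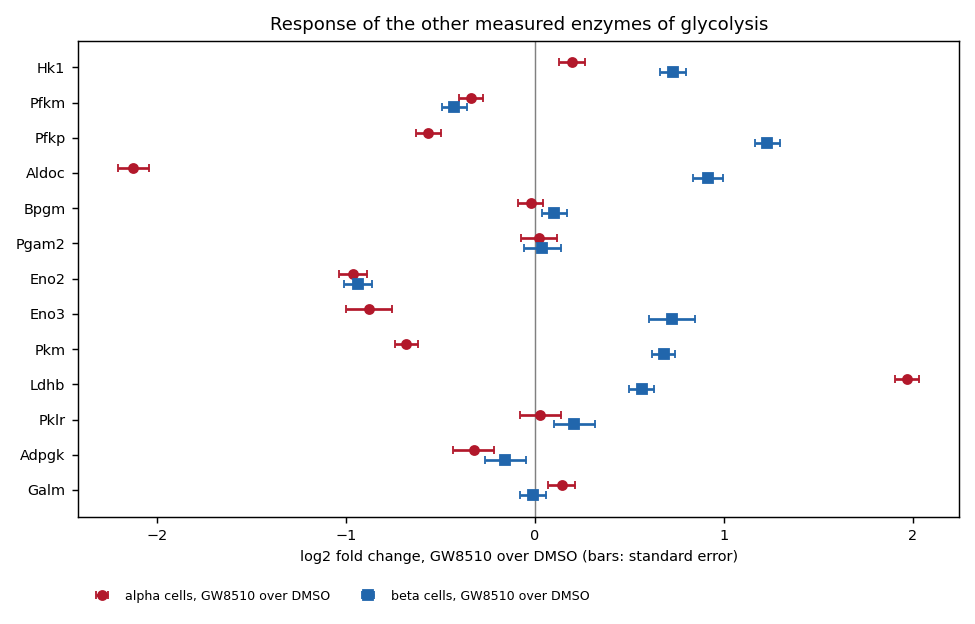
Log2 fold change of GW8510 over DMSO of the 13 other measured glycolysis genes (bars, standard error; circles, alpha cells; squares, beta cells). Aldoc has the lowest alpha value (-2.13), Ldhb the highest alpha value (1.97) and Pfkp the highest beta value (1.23).

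Downstream of pyruvate, 16 genes were measured, of which 7 were higher and 6 lower in alpha cells, and 8 higher and 1, Pcx, lower in beta cells. Of all genes, 20.2% were higher and 21.2% lower in alpha cells, and 19.7% higher and 14.3% lower in beta cells. Pdk1, the kinase that shuts pyruvate dehydrogenase, changed as the glycolysis genes did, with 827, 908 and 897 in alpha cells with GW8510 against 2553, 2517 and 2011 with DMSO (log2 -1.42, adjusted p = 9.61e-07 in limma) and a rise of 1.07 in beta cells (adjusted p = 2.34e-05). Slc16a3, the monocarboxylate exporter MCT4, and Bsg, the chaperone of these exporters, were also lower in alpha cells (-0.29 and -0.24) and higher in beta cells (0.58 and 0.34). The alpha values of Slc16a3 were low, with means of 72.8 with GW8510 and 89.3 with DMSO. Its alpha call was lost under 2 of the alternatives. Slc16a1, the exporter MCT1, was higher in both (0.67 and 0.54), and Pcx, pyruvate carboxylase, was lower in both (-0.48 and -0.43).

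**Figure D5:**
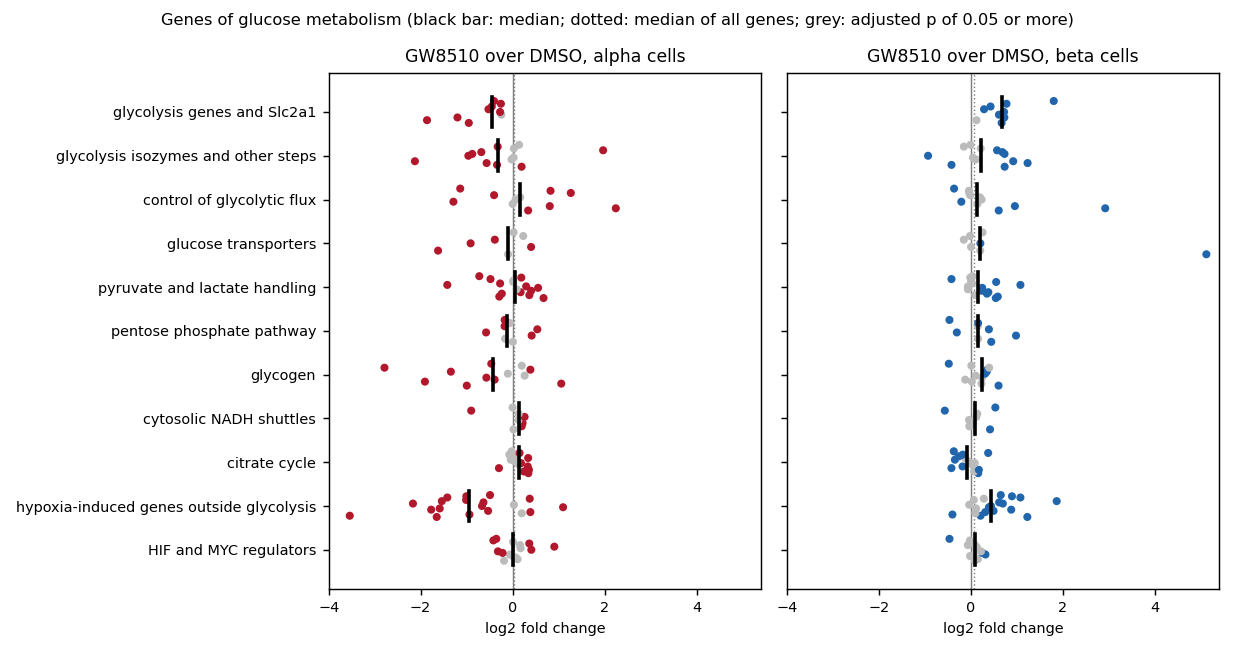
Log2 fold change of GW8510 over DMSO in alpha cells (left) and beta cells (right) for the 9 measured members, in the top row, and 10 further groups of genes; each dot is a gene, grey where the adjusted p was 0.05 or more, black bars are medians and the dotted line is the median of all genes. The member median is -0.45 in alpha and 0.66 in beta cells, and that of hypoxia-induced genes outside glycolysis is -0.94 and 0.43.

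Set against each other, the lines differed in their levels of these genes with DMSO alone on day 5. With DMSO, alpha cells were above beta cells for all 9 genes, 1.28-fold (Pfkfb3) to 24.1-fold (Hk2), with a median log2 difference of 1.19 beside 0.05 for all genes and where 28.9% of all genes were higher in alpha cells. With GW8510, 5 of the 9 were higher in alpha cells (Hk2, Ldha, Slc2a1, Pgam1 and Aldoa), where 27.5% of all genes were, and 2 lower (Pfkl and Pfkfb3), where 30.4% of all genes were. The median alpha over beta log2 difference with GW8510 was 0.20 beside 0.00 for all genes, and the folds ran between 0.472 (Pfkl) and 6.1 (Hk2). Tpi1 and Pgk1 did not pass there, at 0.959-fold and 0.906-fold. These contrasts use the same arrays as the responses above, so the narrower gap restates them and is not further evidence. The DMSO arrays also enter the responses on which the genes were picked, so nothing is read from the share with DMSO. In 8 of the 9 genes the alpha DMSO mean was the highest of the 4, and in 8 of the 9 the beta DMSO mean was the lowest, the exceptions being Pfkfb3, highest in beta GW8510, and Pfkl, lowest in alpha GW8510.

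The difference between the lines in the response, alpha minus beta, ran between -2.20 (Ldha) and -0.81 (Tpi1), with a median of -1.02 beside -0.04 for all genes, where 16.4% of all genes had a lower response in alpha cells. It came from different sides in different genes. For Hk2, Pfkl and Slc2a1 the alpha fall was the larger share, at -1.86, -1.20 and -0.95, and Tpi1 fell by more than it rose (-0.53 in alpha and 0.28 in beta cells). For Ldha, Pgam1 and Aldoa the beta rise was the larger, at 1.80, 0.77 and 0.72, and Pgk1 was nearly even (-0.45 and 0.42). Pfkfb3 rose by more than it fell on the probe set used (-0.25 in alpha and 0.61 in beta cells), but its probe sets disagreed.

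Across the 12 arrays, each gene was set against the mean of the other 8 after scaling each to the same spread. Pearson's r was 0.98 for Pgk1, 0.95 for Tpi1, 0.93 for Aldoa, 0.92 for Slc2a1, 0.91 for Pgam1 and 0.90 for Ldha, and lower for Hk2 (0.75), Pfkl (0.54) and Pfkfb3 (0.49). The points share 4 groups, so r mainly describes the group means and is given without a test. On the scaled mean of the 9 genes, beta DMSO replicate 3 stood at -0.97 beside -1.33 and -1.26 for its fellows, and alpha GW8510 replicate 3 at -0.19 beside 0.02 and 0.08. Beta GW8510 replicate 3, the brighter array, stood at 0.10 between its fellows at 0.04 and 0.19. The genes outside the set whose profile was most like this mean, of 3269 whose group means span at least 1 on the log2 scale, were Lyplal1 (r = 0.98), Errfi1 (0.98), Plod2 (0.97), Nr2c2ap (0.96), Pfkp (0.96) and Vldlr (0.96), and those least like it were Palld (-0.98), Hpcal1 (-0.97) and St3gal4 (-0.96). Plod2, a collagen lysyl hydroxylase, had 1105, 1104 and 1025 in alpha cells with GW8510 against 1647, 1643 and 1647 with DMSO, and 883, 879.6 and 936 in beta cells with GW8510 against 467, 529.7 and 467 with DMSO.

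Hypoxia-induced genes outside glycolysis ran the same way in number. Of 19 measured, 14 were lower and 3 higher (Egln3, 1.10; Car12, 0.39; Ak4, 0.37) in alpha cells, with a median of -0.94, and 13 were higher and 1 lower (Vegfa, -0.41) in beta cells, with a median of 0.43. The shares of all genes were 21.2% lower and 20.2% higher in alpha cells, and 19.7% higher and 14.3% lower in beta cells. The Ak4 value turned to -0.31 in alpha cells on its most variable probe set, and the Vegfa call in beta cells was lost under 8 of the alternatives. The 4 lowest in alpha cells were Ndrg1 (-3.54), Adm (-2.17), P4ha2 (-1.77) and Bnip3 (-1.65), and the 4 highest in beta cells were Ero1a (1.86), Bnip3 (1.22), Pdk1 (1.07) and Bhlhe40 (0.89). Hif1a, the regulated subunit of the factor itself, gave -0.19 in alpha cells (adjusted p = 0.1 in limma) and 0.08 in beta cells (adjusted p = 0.49). The list was written with earlier results of these data known.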

How the data were processed

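RNA from αTC1 and βTC3 cells, given 3.3 µM GW8510 or DMSO for 5 days (3 arrays a group), was hybridised to Affymetrix Mouse Genome 430A arrays. The deposited values are intensity values on a linear scale, which the authors made with RMA according to the submitters' processing notes (version not given in the sources used here). All values are at least 20 and at most 20000. These bounds are taken to be the authors' and compress differences near them. The log2 was taken with no pseudocount. Of 22690 probe sets, 64 controls, 691 with several symbols, 1555 with none and 330 at a bound on all arrays were left out, and the brightest remaining one stood for each of 12255 genes. A fit over 22175 probe sets gave the values of single probe sets.

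All 12 arrays entered 1 limma 3.58.1 fit on group means (R 4.3.3) with empirical Bayes and Benjamini-Hochberg adjustment over all genes. It had 8 residual degrees of freedom and a median standard error of 0.084 (log2), limited by the number of arrays. P-values measure the spread between these cultures. The members and all gene lists were chosen with earlier results of these data known. Named are the members, measured isozymes, up to 4 genes of each list and contrast with the largest changes, genes of a list where 5 or fewer moved one way, and the 6 genes most and 3 least like the members. On simulated arrays of 12000 genes with 200 changed, 93% of changes of log2 0.5 in the alpha contrast and 75% in the difference between lines were recovered. These changes were set in the alpha GW8510 arrays only, with no bounds on the values. In the data 20.2% of genes were higher and 21.2% lower in alpha cells, so recovery there can differ. Alternatives changed the normalization, the probe set of a gene, the filter on dim or bounded values, the pseudocount (1 or 16), the fitted groups, the eBayes trend or the array weights, added a replicate block, or omitted 1 array. Promoter windows were RefSeq's on GRCm38.p6. Some genes are not reported here.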

Additional observations from a re-analysis of the deposited data

Results flagged for a closer look

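The response to GW8510 differed between the lines for many of the genes named, by the interaction of line and treatment in limma at an adjusted p under 0.05. The values are alpha minus beta differences in the log2 fold change of GW8510 over DMSO. For the members, which were chosen for this difference, they are a description, namely -1.62 for Slc2a1, -1.98 for Hk2, -1.92 for Pfkl, -0.85 for Pfkfb3, -0.99 for Aldoa, -0.81 for Tpi1, -0.88 for Pgk1, -1.02 for Pgam1 and -2.20 for Ldha. Pfkfb3 rests on 1 of its 2 probe sets, and the other gave 0.19.

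Among other enzymes of the pathway the difference was -0.53 for Hk1, -1.80 for Pfkp, -3.04 for Aldoc, -1.60 for Eno3, -1.36 for Pkm and 1.40 for Ldhb. Of these the signed difference was above 0 for Ldhb alone, opposite to Ldha. Genes that control the flux gave -0.67 for Fbp1, 1.30 for Txnip, 0.87 for Arrdc4, -1.08 for Pck2 and -0.77 for Mlxipl. Transporters and genes of pyruvate and lactate handling gave -5.21 for Slc2a2, -1.82 for Slc2a3, -1.12 for Slc2a5, -0.87 for Slc16a3, -2.49 for Pdk1 and -0.58 for Bsg. Glycogen and pentose phosphate genes gave -3.18 for Ppp1r3c, -1.92 for Gbe1, -1.68 for Pgm1, -1.59 for Gys1, 0.83 for Gyg, -0.41 for Ugp2 and -0.56 for Pgd.

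Hypoxia-induced genes outside glycolysis gave -3.75 for Ndrg1, -2.86 for Adm, -2.64 for P4ha2, -2.87 for Bnip3, -3.40 for Ero1a, -1.90 for Bhlhe40 and 0.71 for Egln3. The genes whose profile was most like the members gave -1.45 for Lyplal1, -1.14 for Errfi1, -1.50 for Plod2, -1.05 for Nr2c2ap and -1.38 for Vldlr, and those least like them gave 1.26 for St3gal4, 1.19 for Hpcal1 and 2.57 for Palld, which follows from how they were chosen. Cell type markers gave -0.91 for Gcg, 0.64 for Ins2, 1.45 for Iapp, 1.25 for Ttr and 0.90 for Pou3f4. Further markers gave -1.08 for Irx1, -0.54 for Irx2, 2.60 for Pdx1, -0.48 for Cela1, 0.87 for Hhex and -1.02 for Col1a2. The differences of Gcg, Ins2, Iapp and Ttr are limited by the upper bound in at least 1 line. That of Cela1 was near the threshold (adjusted p = 0.048 in limma) and was lost under 13 of 23 alternatives.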

How the results depend on the processing

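The 9 members kept their direction in both lines under all alternatives run, with the exception of Hk2 in beta cells (-0.16 without beta DMSO replicate 1). Pfkfb3 was -0.03 in alpha cells with the mean of its probe sets. No alternative used its second probe set alone, which gave 0.19 in alpha and -0.001 in beta cells. Of the members, 7 to 9 passed as lower in alpha cells, a count that the choice of the genes favoured and that is no test of them. Ldha was lost without alpha DMSO replicate 1 or 2 or alpha GW8510 replicate 2 or 3, and Pfkfb3 passed without alpha GW8510 replicate 2 or beta GW8510 replicate 1. In beta cells 8 were higher under every alternative. With the mean of all probe sets, 1 member was lower in alpha than in beta cells under GW8510 rather than 2. With the most variable probe set of a gene, the median difference of the members was -1.12 rather than -1.02. With array weights, 2280 genes rather than 1475 had a higher response in alpha cells.

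Ak4 turned with the probe set chosen (alpha response -0.31 and difference -1.77 with the most variable, difference -0.65 with the mean), as did Galm (0.24) and Vldlr (-0.048) in beta cells with the most variable. Without the dimmest 25% of genes, the median of the delta and PP cell markers in alpha cells became -0.095 beside 0.29, and that of genes controlling the flux in beta cells -0.030 beside 0.14. Here fewer genes entered the medians. Without beta GW8510 replicate 3, the brighter array, 1948 genes were higher and 2005 lower in beta cells, against 2417 and 1757 with it.

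Calls lost when 1 array was left out were those of Hk1 (0.16 to 0.20), Adpgk (-0.35 to -0.26), Pfkfb2 (0.24 and 0.29), G6pc3 (-0.35 and -0.27), Slc16a3 (-0.25 and -0.24) and Ak4 (0.25 and 0.35) in alpha cells. In beta cells they were those of Pck2 (-0.24 to -0.18), Mlxipl (-0.34 to -0.30), Vegfa (-0.41 to -0.33), Adm (0.48 to 0.67), Car12 (0.22 to 0.33), Ndrg1 (0.18), Nkx6-1 (-0.30 to -0.18) and Pdx1 (-0.21 to -0.17). The cause was not tested.

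Same-numbered arrays did not deviate together (r of -0.13 to 0.08), so the numbers did not pair them. With a replicate block, 2374 genes were higher and 2511 lower in alpha cells, 2259 higher and 1654 lower in beta cells, 8 members passed in each line, and the calls of Hk1 and Adpgk in alpha cells and of Pck2 and Vegfa in beta cells were lost. Intensities near 20 or 20000 limit the folds of dim and of bright genes.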

Other observations

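Glycogen genes, not described above, were lower in alpha cells in 7 of 12 measured and higher in 2, Gyg (log2 1.06), the protein on which glycogen is started, and Pgm2 (0.39). Those with the largest falls were Ppp1r3c (-2.79), which targets a phosphatase to glycogen, the branching enzyme Gbe1 (-1.91), Pgm1 (-1.34) and the synthase Gys1, which had 0.501 of its DMSO level, at adjusted p of 1.38e-05 or less in limma. In beta cells 4 were higher (Gys1, 0.60; Pgm2, 0.35; Pgm1, 0.34; Ugp2, 0.30) and Phkb was lower (-0.49), so Gys1 and Pgm1 ran as the glycolysis genes did. The shares of all genes were 21.2% lower and 20.2% higher in alpha cells, and 19.7% higher and 14.3% lower in beta cells.

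Pgd, the enzyme of the pentose phosphate pathway that yields NADPH after glucose 6-phosphate is oxidised, rose in both lines. Its log2 change was 0.41 in alpha and 0.98 in beta cells (adjusted p = 0.000132 and 3.79e-07 in limma). Of the 8 measured genes of this pathway, 2 were higher and 3 lower in alpha cells, and 4 higher and 2 lower in beta cells. For all genes these shares were 20.2% and 21.2% in alpha cells, and 19.7% and 14.3% in beta cells.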
